A study of Mus with 2 samples.

Results

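Mt1 and Mt2 encode the 2 broadly expressed mouse metallothioneins. They were followed through every kind of cell captured in a single-cell RNA-Seq experiment on hematopoietic stem cells (HSCs) with and without Id2, an inhibitor of DNA-binding proteins whose part in HSC quiescence was the study's question. The members are the rows whose gene symbol is Mt1 or Mt2, which are 2 of 27998 genes. They were chosen by the high ratio of Mt1 between the genotypes in stem cells in earlier results of these data, so the values below are descriptions and none was tested. LSK FLT3– CD150+ CD48– cells (lineage-negative, Sca-1+ and c-Kit+) were sorted from tibias and fibulas of mice aged 8 to 12 weeks. The Mx1-Cre Id2+/+ group and the Mx1-Cre Id2Δ/Δ group were each 1 library of 1000 sorted cells from 5 pooled mice. All mice carried Mx1-Cre, a recombinase that poly(I:C) switches on in hematopoietic and other interferon-responsive cells, so the controls also carry the transgene. One clause of the labels names Id2+/+ bones as the source of the Id2Δ/Δ sample. Its group was taken from its title, which gives the deletion.

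Metallothioneins are small cysteine-rich proteins that bind zinc and copper and buffer them in the cell. The zinc-sensing transcription factor MTF1 switches Mt1 and Mt2 on when zinc rises, and glucocorticoids and oxidative stress raise them as well. Mt3 is known from brain and Mt4 from stratified epithelium. In the developing red cell, zinc is the cofactor of the abundant carbonic anhydrases and iron enters haem.

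Both genes lie on chromosome 8 of the GRCm38 (mm10) build. Mt1 (ENSMUSG00000031765) spans chr8:94178883-94180327 and Mt2 (ENSMUSG00000031762) spans chr8:94172618-94173567. RefSeq annotates both as protein coding, with 5315 bases and 0 other genes between them. The other 2 members of the family, Mt3 and Mt4, had 1 and 0 unique molecular identifiers (UMIs) among all barcodes of the Id2+/+ library and 5 and 1 in the Id2Δ/Δ library. A UMI counts an RNA molecule once, at its 3′ end, so levels of different genes can be compared without a correction for length. How reads shared by related sequences were assigned is not given in the sources used here.

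The Id2+/+ library held 8612217 UMIs and the Id2Δ/Δ library 17140713. After calling cells and a 10% limit on mitochondrial UMIs, 333 and 625 cells were left. Marker genes divided them into 262 and 416 stem-like cells, 44 and 169 erythroid-like cells, and 27 and 40 neutrophil-like cells. Erythroid-like and neutrophil-like cells lie outside the sorted phenotype. Mt1 and Mt2 were kept out of the clustering. Id2 had 22 UMIs in stem-like Id2+/+ cells and 0 in stem-like Id2Δ/Δ cells. A total of 1 barcode was called a cell in both libraries. Values are CPM, a gene's UMIs per 1000000 UMIs of the summed cells, with exact 95% intervals for the counting error alone. As each genotype is 1 library, nothing checks a difference against replicates, no p-value is given, and a difference between genotypes cannot be told apart from a difference between libraries or mouse pools.

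Mt1 was high in neutrophil-like and early erythroid-like cells and low in stem-like cells, whereas Mt2 was high in early erythroid-like cells alone among the classes compared. In the Id2+/+ library Mt1 stood at 799 CPM (720 to 885) in neutrophil-like cells, 409 CPM (376 to 443) in erythroid-like cells and 36.6 CPM (28.9 to 45.6) in stem-like cells. In the Id2Δ/Δ library these levels were 730 CPM (669 to 794), 477 CPM (460 to 494) and 73.6 CPM (66.1 to 81.8). The order was the same in both libraries, and no 2 neighbours overlapped within counting error. Mt2 stood at 381 CPM (350 to 415) and 399 CPM (383 to 414) in erythroid-like cells of the Id2+/+ and Id2Δ/Δ libraries. It stood at 23.8 CPM (11.9 to 42.6) and 19.3 CPM (10.5 to 32.3) in neutrophil-like cells and at 13.6 CPM (9.10 to 19.5) and 16.2 CPM (12.8 to 20.3) in stem-like cells. The intervals of neutrophil-like and stem-like cells overlapped for Mt2.

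**Figure D1:**
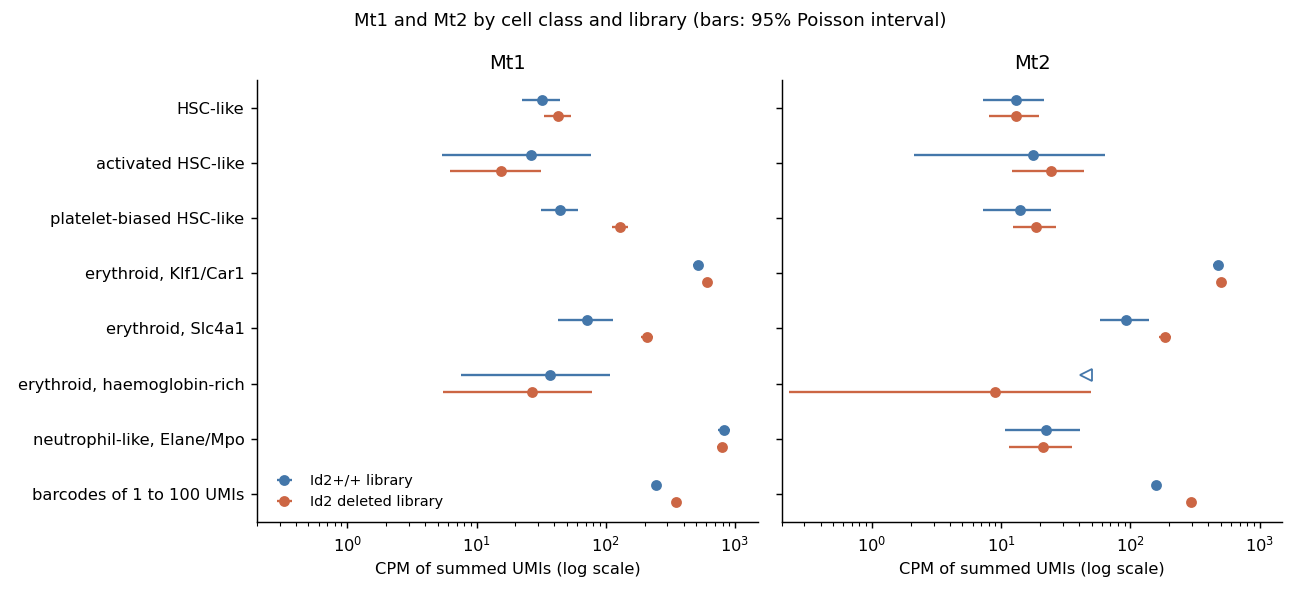
CPM of Mt1 (left) and Mt2 (right) on a log axis for each cell class and for barcodes of 1 to 100 UMIs, in the Id2+/+ (blue) and Id2Δ/Δ (orange) libraries, with 95% Poisson intervals as bars. The open triangle is the upper bound for a count of 0. Mt1 is high in Klf1/Car1 erythroid and Elane/Mpo neutrophil-like cells, and Mt2 in the former.

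Erythroid-like cells fell into 3 stages, named by genes among the 10 that led each cluster. In the first these included Klf1, the master transcription factor of red cell genes, and Car1, a carbonic anhydrase. Mt2 itself stood first and second among the leading genes of the pair of clusters of this stage, although it was kept out of the clustering. The leading genes of the second included Slc4a1, the red cell anion exchanger, and the last devoted most of its UMIs to haemoglobin genes. The 27 Id2+/+ and 105 Id2Δ/Δ Klf1/Car1 cells formed 1 cluster per library. Klf1 does not set them apart from the second stage, where it stood at 705 and 723 CPM against 581 and 624 CPM in the first, and Car1 was at 1778 and 2077 CPM against 2166 and 2581 CPM. Slc4a1 stood at 236 and 63.7 CPM in the second stage and 7.48 and 4.97 CPM in the first. Every Klf1/Car1 cell held UMIs of both Mt1 and Mt2. Mt1 stood at 515 CPM (473 to 560) and 603 CPM (580 to 626) there, and Mt2 at 478 CPM (437 to 521) and 499 CPM (478 to 520). In the 8 and 51 Slc4a1 cells Mt1 stood at 72.1 CPM (42.7 to 114) and 208 CPM (188 to 230), and Mt2 at 92.1 CPM (58.4 to 138) and 186 CPM (167 to 206). Both genes were thus lower in the second stage than in the first in each library, by more than counting error.

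In the 9 and 13 haemoglobin-rich cells 3 Mt1 UMIs were found in each library, and 0 and 1 Mt2 UMIs. These cells spend nearly all of their UMIs on globin, which lowers the CPM of every other gene, and outside the haemoglobin genes they held only 10428 and 13071 UMIs. Scaled to these other UMIs alone, Mt1 stood at 288 and 230 CPM. Free RNA, gauged by neutrophil granule genes in the way given for stem-like cells, would give 2.46 and 3.72 Mt1 UMIs in these cells. The Mt1 level of the last stage was therefore not detectable above free RNA at this depth.

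The same pattern was seen when cells were ordered by the share of their UMIs in haemoglobin genes. Mt1 stood at 576 and 638 CPM in cells with under 0.5% haemoglobin (21 Id2+/+ and 87 Id2Δ/Δ cells). It stood at 331 and 364 CPM between 0.5% and 1%, at 175 and 207 CPM between 1% and 2%, and at 65.2 and 133 CPM between 2% and 5%. Mt2 went through 514 and 517, 424 and 342, 191 and 173, and 84.8 and 139 CPM over the same steps. Globin took at most 5% of UMIs in these cells and can lower the CPM of other genes by no more than that. The steps from 0.5% upward hold only 3, 6 and 4 Id2+/+ cells, and 11, 13 and 6 of the 213 erythroid-like cells lay within 1.1-fold of the limits at 0.5%, 1% and 2%. Across cells the Spearman correlation of the haemoglobin share with the CPM of Mt1 was -0.760 in 44 Id2+/+ cells and -0.795 in 169 Id2Δ/Δ cells. For Mt2 it was -0.768 and -0.730. Within the cells under 0.5% haemoglobin it was -0.103 and -0.535 for Mt1 and -0.201 and -0.496 for Mt2, and so was weak among these 21 Id2+/+ cells. Each set of cells shares a library, and depth falls with the last stage, so these are descriptions.

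**Figure D2:**
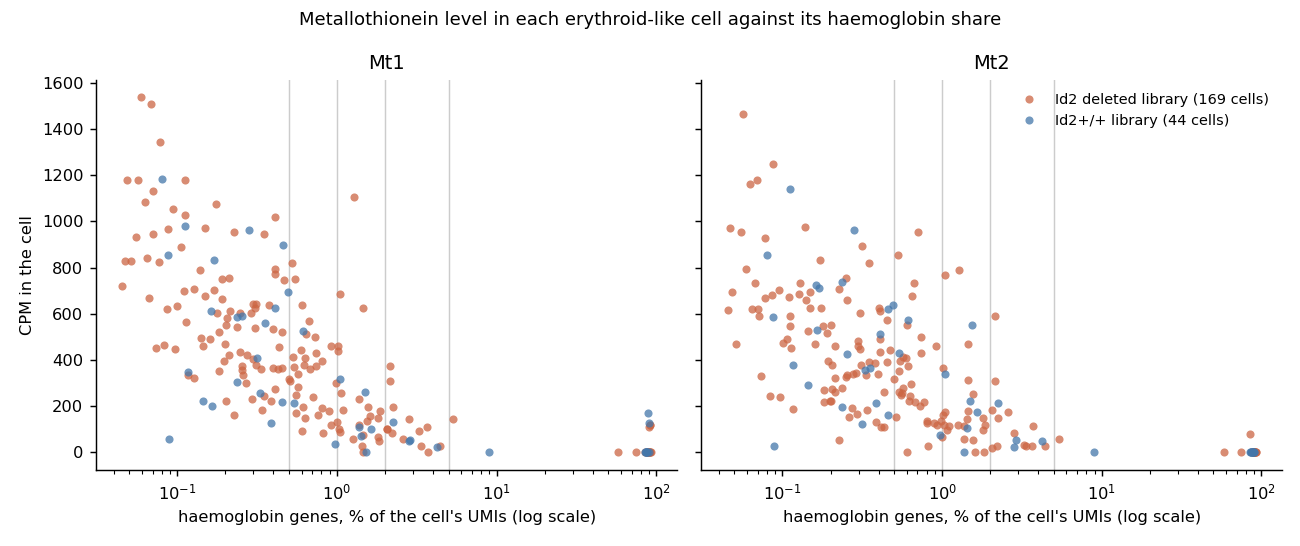
Mt1 (left) and Mt2 (right) CPM in each erythroid-like cell against the share of its UMIs in haemoglobin genes (log axis), for 44 Id2+/+ (blue) and 169 Id2Δ/Δ (orange) cells. Grey lines mark 0.5%, 1%, 2% and 5%, and both genes fall toward 0 as the haemoglobin share increases.

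Within erythroid-like cells the paired genes went together. The Pearson correlation of Mt1 and Mt2 CPM across cells was 0.880 in the Id2+/+ library and 0.822 in the Id2Δ/Δ library. Among cells under 0.5% haemoglobin alone it was 0.844 over 21 cells and 0.730 over 87. The erythroid-like cell with most Mt1 UMIs held 65 Mt1 and 47 Mt2 UMIs in the Id2+/+ library, and 69 Mt1 and 89 Mt2 UMIs in the Id2Δ/Δ library. In neutrophil-like cells the correlation was 0.118 and 0.147, where Mt2 was at most 2 UMIs in a cell.

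**Figure D3:**
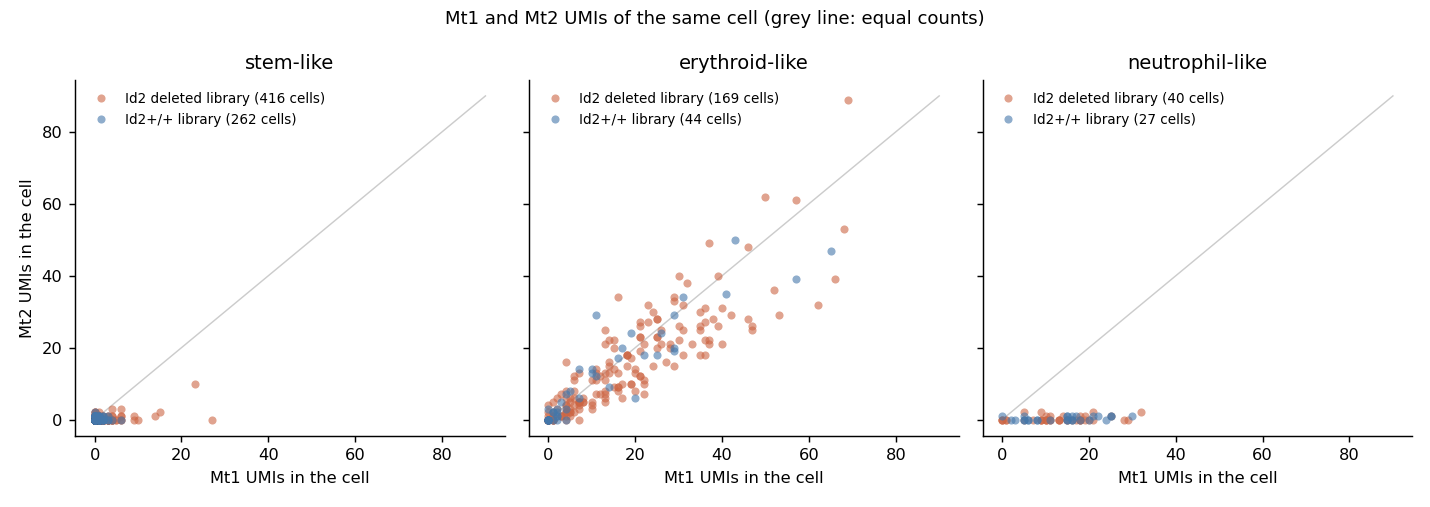
Mt2 UMIs against Mt1 UMIs of the same cell in stem-like (left), erythroid-like (middle) and neutrophil-like (right) cells, Id2+/+ in blue and Id2Δ/Δ in orange, with a grey line at equal counts. Erythroid-like cells scatter along the line, and neutrophil-like cells lie along the Mt1 axis with at most 2 Mt2 UMIs.

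Klf1/Car1 cells of the Id2Δ/Δ library were not alike in their metallothionein levels. A subcluster of 55 cells, all at this stage and led by interferon-inducible genes such as Iigp1, Igtp, Psmb9 and Bst2, held Mt1 at 757 CPM (722 to 793) and Mt2 at 630.0 CPM (598 to 663). A subcluster of 68 cells led by Rpl39l and E2f3 held 48 Klf1/Car1 cells and 20 Slc4a1 cells. Its Klf1/Car1 cells held Mt1 at 440 CPM (411 to 469) and Mt2 at 358 CPM (332 to 385), and its Slc4a1 cells at 303 CPM (265 to 345) and 269 CPM (233 to 308). Restricted to cells under 0.5% haemoglobin, the second subcluster kept 28 Klf1/Car1 cells with Mt1 at 440 CPM (403 to 479) and Mt2 at 326 CPM (294 to 360), while all 55 cells of the first were under this limit. Haemoglobin genes took 0.144% and 0.546% of UMIs in the whole subclusters. The limit of 0.5% does not match them by haemoglobin: among Id2Δ/Δ cells under it, the Spearman correlation of haemoglobin share and Mt1 was -0.535. The Id2+/+ Klf1/Car1 cells all fell in a subcluster without Id2Δ/Δ cells, so they give no matching comparison. These subclusters were picked after their values were seen, and Mt1 itself was among the 10 leading genes of the 55 cells.

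Neutrophil-like cells expressed Mt1 nearly alone. Mt1 made up 97.1% (94.9 to 98.5) of the Mt1 plus Mt2 UMIs in the Id2+/+ library and 97.4% (95.7 to 98.6) in the Id2Δ/Δ library. In erythroid-like cells this share was 51.7% (48.7 to 54.7) and 54.5% (53.2 to 55.8). The Mt1 UMIs came from the 26 and 35 cells rich in Elane and Mpo, primary granule genes of immature neutrophils, where all cells held Mt1 and the level was 819 CPM (738 to 907) and 795 CPM (729 to 866). The 4 cells rich in S100a8, Ngp and other genes of more mature neutrophils held 1 Mt1 UMI among 49536. These genes took at least 39.1% of UMIs in each of the 4 cells and at most 5.40% in any other neutrophil-like cell, and 2 cells fell in neither kind. The Mt2 UMIs of neutrophil-like cells numbered 11 and 14, against 7.19 and 8.65 expected from free RNA by haemoglobin. The counting intervals of Mt2 reach down to 11.9 and 10.5 CPM and include the 15.6 and 11.9 CPM expected, so Mt2 was not detectable above background in these cells.

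**Figure D4:**
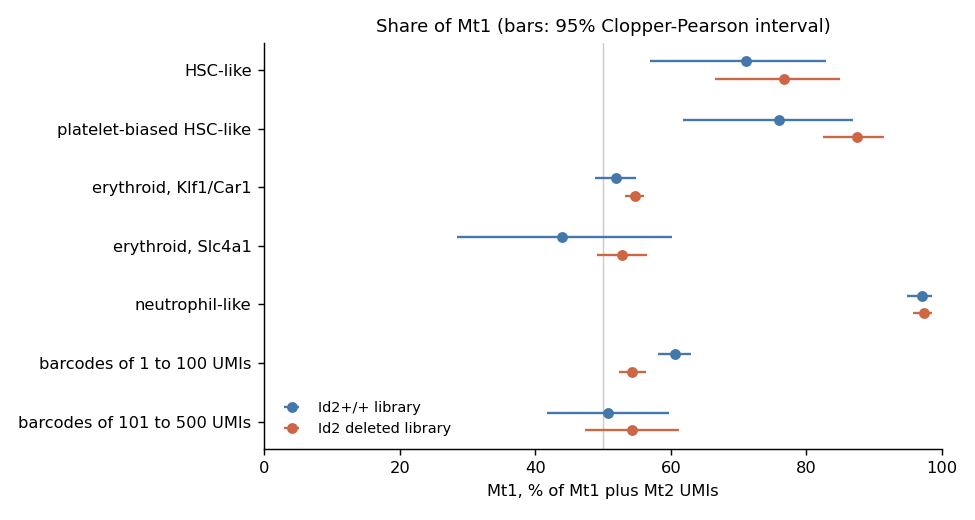
Mt1 as a percentage of Mt1 plus Mt2 UMIs, by class and for barcodes below a cell, in the Id2+/+ (blue) and Id2Δ/Δ (orange) libraries with 95% Clopper-Pearson intervals. Erythroid cells lie near equal counts, neutrophil-like cells at 97.1% and 97.4%, and barcodes of 1 to 100 UMIs at 60.6% and 54.3%.

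Stem-like cells held few metallothionein UMIs, 78 of Mt1 and 29 of Mt2 in the Id2+/+ library and 345 and 76 in the Id2Δ/Δ library. With each cell thinned to 5800 UMIs, an Mt1 UMI was found in 16.3% of 196 and 20.4% of 416 cells. Without thinning, at median depths of 7081 and 9663 UMIs, it was found in 21.8% and 33.7%. Thinning left out 66 shallower Id2+/+ cells. For Mt2 the thinned shares were 5.10% and 7.93%, against 10.7% and 13.9% unthinned. No class in these data is known to lack both genes. In haemoglobin-rich cells, at median depths of 8406 and 8548 UMIs, the unthinned shares were 22.2% and 23.1% for Mt1 and 0% and 7.69% for Mt2, over 9 and 13 cells. The 0 of 9 cells set no useful limit on the share.

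Free RNA can supply such counts, since both genes were abundant in barcodes of 1 to 100 UMIs, too few for a cell. These barcodes held Mt1 at 243 CPM (228 to 259) and 351 CPM (333 to 370), and Mt2 at 158 CPM (146 to 171) and 295 CPM (278 to 313). They took 46.3% of all UMIs in the Id2+/+ library and 22.4% in the Id2Δ/Δ library. If the haemoglobin UMIs in stem-like cells were all free RNA, free RNA would be 10.5% and 5.40% of their UMIs. It would then give Mt2 at 16.6 and 15.9 CPM, against 13.6 and 16.2 CPM found, so Mt2 lay at background in stem-like cells of both libraries. Mt1 would be at 25.5 and 19.0 CPM, against 36.6 and 73.6 CPM found. Neutrophil granule genes as the gauge put Mt1 from free RNA at 34.6 and 52.7 CPM. That gauge puts Mt2 at 22.5 and 44.3 CPM, above the level found in both libraries. If every Mt2 UMI in stem-like cells were free RNA, the Mt1 that came with it would be 20.9 and 19.3 CPM. The Mt1 share of stem-like cells, 72.9% (63.4 to 81.0) and 81.9% (77.9 to 85.5), also lay above that of the barcodes of 1 to 100 UMIs, 60.6% (58.2 to 63.0) and 54.3% (52.4 to 56.3).

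Among stem-like cells Mt1 was highest in platelet-biased HSC-like cells of the Id2Δ/Δ library. These cells, 75 and 92 in number, were named from a list of 8 markers that includes Pf4, which encodes platelet factor 4. Of these markers 3 passed in the main Id2+/+ cluster, the fewest that allow a name, and 5 or 6 in the mostly Id2Δ/Δ clusters. Pf4 was among the leading genes of the latter only, and the 2 Id2+/+ cells with most Mt1 UMIs held 0 Pf4 UMIs. In the Id2+/+ library Mt1 stood at 44.4 CPM (31.4 to 60.9) there, and in the Id2Δ/Δ library at 129 CPM (112 to 148). HSC-like cells, 175 and 195 in number, held it at 32.0 CPM (22.6 to 44.2) and 42.5 CPM (33.1 to 53.8). In 11 and 46 activated HSC-like cells, marked by Ccnb2 and other mitotic genes, it stood at 26.2 CPM (5.41 to 76.6) and 15.4 CPM (6.20 to 31.8). A cluster left unnamed, led by Vpreb3 and Igll1, held it at 64.2 CPM (49.8 to 81.6) in 83 Id2Δ/Δ cells and had 1 Id2+/+ cell. In the Id2+/+ library the intervals of all 3 named classes overlapped. In the Id2Δ/Δ library platelet-biased cells stood apart from the others, HSC-like cells overlapped the unnamed cluster, and activated cells lay lowest. Mt2 ran from 12.9 to 24.2 CPM over the named stem-like classes of both libraries, with overlapping intervals.

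Platelet-biased cells held 48.7% of the stem-like Mt1 UMIs in the Id2+/+ library and 58.6% in the Id2Δ/Δ library. Of the stem-like UMIs of all genes they held 856420 of 2133449 and 1564931 of 4685729. A few cells carried many: 3 Id2Δ/Δ platelet-biased cells held 27, 23 and 15 Mt1 UMIs, against at most 6 in any Id2+/+ stem-like cell. Their depths were 24012, 26862 and 27136 UMIs, and their Pf4 counts were 5, 336 and 169 UMIs. Granule genes made up at most 0.0484% of the UMIs in these 3 cells.

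Across the genotypes, Mt1 in stem-like cells was 2.01-fold higher in the Id2Δ/Δ library (1.57 to 2.61), which is the value that chose the gene. Of 10458 genes with at least 20 UMIs, 3.30% were higher by 1.5-fold, and Mt1 ranked 72 from the highest. With TMM scaling 562 of these genes were higher and 1040 lower by 1.5-fold, in place of 345 and 1416. The ratio was 2.91 (2.05 to 4.23) in platelet-biased cells, where 6.67% of genes were higher by 1.5-fold, and 1.33 (0.877 to 2.03) in HSC-like cells, where 4.83% were. Without the platelet-biased cells it was 1.46 (1.02 to 2.13). Stem-like cells with Xist but no Y-linked UMIs, 84 Id2+/+ and 231 Id2Δ/Δ cells, had an Mt1 ratio of 1.90 (1.297 to 2.87). Stem-like cells with the reverse, 93 and 90 in number, had 1.39 (0.888 to 2.22), an interval that includes 1. These intervals overlap, and the part of the sex-linked make-up of the libraries in the stem-like Mt1 ratio was not tested. After subtraction of free RNA, 11.1 and 54.6 CPM of Mt1 were left in stem-like cells with the haemoglobin gauge, and 1.95 and 20.9 CPM with the granule gauge. The 34.6 CPM that the granule gauge expects lies within the Id2+/+ interval of 28.9 to 45.6 CPM, whereas the 25.5 CPM of the haemoglobin gauge lies below it. The granule gauge also expected more Mt2 than was found in both libraries. How far the Id2+/+ level lay above background thus depends on the gauge, and a ratio after subtraction is not firm. Mt2 had ratios of 1.19 (0.769 to 1.90) in stem-like cells, 1.32 (0.655 to 2.85) in platelet-biased cells and 0.995 (0.489 to 2.08) in HSC-like cells, all with intervals that include 1.

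The platelet-biased cells came from clusters with few cells of the other library, 71 Id2+/+ cells led by Ccl5, the stress gene Hspa1a and Treml1, 65 Id2Δ/Δ cells led by Pf4 and Gp1bb, and 31 mostly Id2Δ/Δ cells whose leading genes were mitotic, such as Aurkb, Ube2c and Top2a, apart from Pf4. The last cluster was deep, with a median of 22403 UMIs. Without it the Mt1 levels were 46.2 and 145 CPM and the ratio was 3.14 (2.17 to 4.64), in 71 and 65 cells. The HSC-like cells likewise came from 1 main cluster per library, led by Meg3 and the stress gene Fos in the Id2+/+ library and by the antigen presentation genes Cd74 and H2-Aa in the Id2Δ/Δ library. Such clusters may follow the library and not a cell type. With each gene scaled within its library before clustering, 25 and 54 cells were named platelet-biased, and their log2 ratio of Mt1 was 1.81 (1.05 to 2.68), against 1.54 (1.03 to 2.08). Of the 14 dissociation stress genes with at least 20 UMIs in stem-like cells, 10 were lower by 1.5-fold in the Id2Δ/Δ library, against 13.5% of all genes. These were Fos, Fosb, Jun, Jund, Egr1, Ier2, Ier3, Zfp36, Dusp1 and Hspa1a. Fos stood at 211 and 35.2 CPM and Jun at 625 and 182 CPM. Hsp90aa1, the most abundant gene of the list, had a ratio of 1.18 (1.12 to 1.24). The part of handling stress in the Mt1 ratio was not tested.

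**Figure D5:**
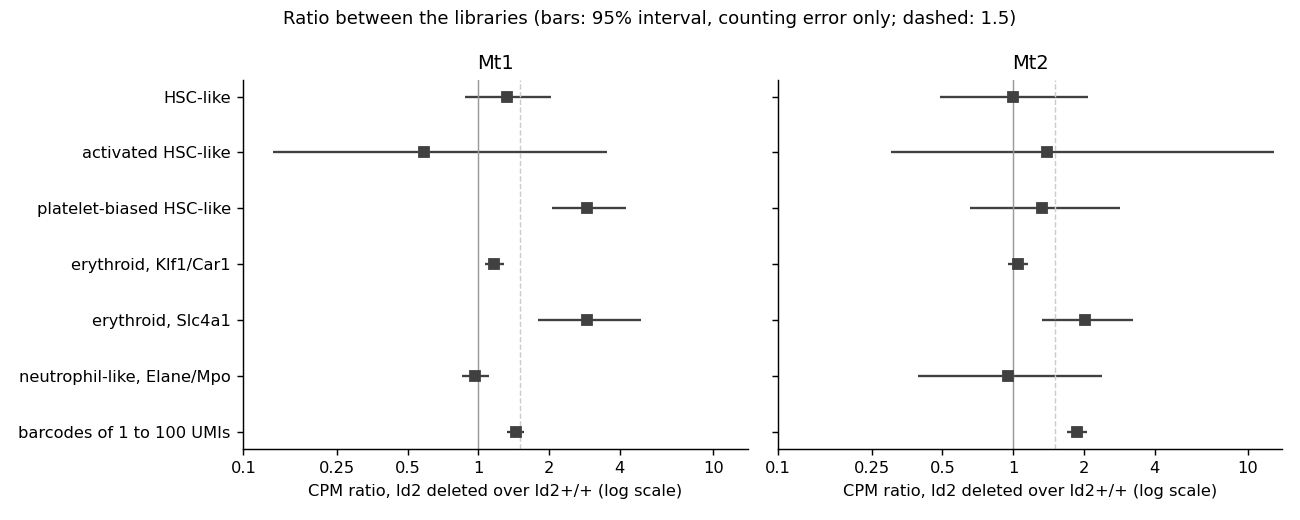
CPM ratio of the Id2Δ/Δ over the Id2+/+ library for Mt1 (left) and Mt2 (right) by class on a log axis, with exact 95% intervals for counting error and a dashed line at 1.5. The ratio of Mt1 is 2.91 in platelet-biased and 2.89 in Slc4a1 cells, and intervals of HSC-like and Elane/Mpo cells include 1.

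In erythroid-like cells the genotypes were closer. The Mt1 ratio was 1.17 (1.07 to 1.28) and the Mt2 ratio 1.05 (0.952 to 1.15), where 5.43% of 8796 genes were higher by 1.5-fold. The direction was not the same in cells split by sex-linked UMIs. Cells with Xist but no Y-linked UMIs had 0.817 (0.704 to 0.952) for Mt1 and 0.696 (0.598 to 0.813) for Mt2, and cells with the reverse had 1.81 (1.43 to 2.31) and 1.38 (1.08 to 1.76), on 14 and 7 Id2+/+ cells. Among the 7 cells, 1 held 41 of their 78 Mt1 UMIs. In Klf1/Car1 cells, where 5.38% of genes were higher by 1.5-fold, the Mt1 and Mt2 ratios were 1.17 (1.07 to 1.28) and 1.04 (0.948 to 1.15). In Slc4a1 cells they were 2.89 (1.80 to 4.92) and 2.02 (1.32 to 3.22), with 18 Mt1 and 23 Mt2 UMIs in 8 Id2+/+ cells. Haemoglobin genes took 2.86% of UMIs in these 8 cells and 1.78% in the 51 Id2Δ/Δ cells, so the cells were not at the same haemoglobin share. At matched haemoglobin between 1% and 2% the ratios were 1.18 (0.807 to 1.77) and 0.906 (0.623 to 1.35), and between 2% and 5% they were 2.04 (1.04 to 4.44) and 1.64 (0.898 to 3.23). In Elane/Mpo neutrophil-like cells the Mt1 ratio was 0.971 (0.849 to 1.11).

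The cell types contributed differently to each gene's total. Erythroid-like cells held 93.0% and 96.6% of the Mt2 UMIs found in cells. They held 56.1% and 77.8% of the Mt1 UMIs, and neutrophil-like cells held 36.2% and 13.5%. UMIs of all genes numbered 1399934 and 6423341 in erythroid-like cells, 461854 and 726446 in neutrophil-like cells, and 2133449 and 4685729 in stem-like cells. The shares thus also follow how many UMIs each class held. Over all cells together Mt1 made up 64.0% and 59.8% of the Mt1 plus Mt2 UMIs, next to 60.6% and 54.3% in barcodes of 1 to 100 UMIs. Between the libraries, the level in those barcodes was 1.44-fold (1.33 to 1.57) higher for Mt1 and 1.87-fold (1.69 to 2.06) higher for Mt2 in the Id2Δ/Δ library.

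Other genes of metal handling were read against the 3.30% of all genes that were higher and the 13.5% that were lower by 1.5-fold in stem-like cells. Mtf1, which encodes the zinc sensor, had a ratio of 1.01 (0.695 to 1.48) there. Of 15 genes of zinc sensing and transport with at least 20 UMIs, 1 was higher and 2 were lower by 1.5-fold, and their median log2 ratio was -0.21, against -0.08 over all genes. The one higher was the zinc importer Slc39a14, at 2.05 (0.675 to 8.32) on 22 UMIs. The importers Slc39a8 and Slc39a10 had ratios of 0.488 (0.220 to 1.09) and 0.635 (0.411 to 0.990). The 3 zinc transporters with most UMIs, Slc39a7, Slc30a5 and Slc39a11, had ratios of 0.803, 0.865 and 0.979.

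Of 9 copper genes in stem-like cells, where these shares of all genes were 3.30% and 13.5%, 0 were higher and 2 lower, the transporters Slc31a2 at 0.650 (0.312 to 1.39) and Atp7a at 0.630 (0.292 to 1.40). The copper chaperones Atox1 and Cox17 had ratios of 1.19 (1.06 to 1.34) and 0.693 (0.606 to 0.794), and Commd1, a regulator of copper balance, had 1.17. Of 7 glucocorticoid response genes, Zbtb16 was higher at 1.94 (0.631 to 7.90), and Tsc22d3 and Dusp1 were lower at 0.638 (0.556 to 0.732) and 0.258 (0.211 to 0.315). Dusp1 also stands among the dissociation stress genes. Nr3c1, the glucocorticoid receptor, had 0.749. Of 11 genes of the NRF2 and oxidative stress response, 0 passed 1.5-fold in either direction. The peroxidase Prdx1 had 1.28 (1.20 to 1.36), the glutathione synthesis gene Gclm 1.13, and Keap1, the inhibitor of NRF2, 1.07 (0.893 to 1.29).

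In erythroid-like cells 2 of 16 zinc genes were higher and 3 lower, against 5.43% and 11.7% of all genes. Slc30a6 and Slc39a13 had ratios of 1.65 (0.902 to 3.32) and 1.83 (0.725 to 5.93), and Slc30a1, Slc30a10 and Slc39a9 had 0.545, 0.654 and 0.642, all 5 on at most 103 UMIs. The zinc genes with most UMIs, Slc39a7, Slc39a8 and Slc30a5, had 0.895, 0.914 and 1.31. Of 7 copper genes Cox17 was lower, at 0.586 (0.534 to 0.643), while Atox1 and Sod1 had 1.12 and 0.799. Of 6 glucocorticoid response genes 4 were lower, Fkbp5 at 0.503 (0.255 to 1.05), Tsc22d3 at 0.576 (0.304 to 1.15), Per1 at 0.490 and Dusp1 at 0.636. Nr3c1 and Klf9 had 1.22 and 0.878. Of 10 oxidative stress genes 2 were higher, the thioredoxin reductase Txnrd1 at 1.83 (1.34 to 2.57) and the sulfiredoxin Srxn1 at 1.78 (0.762 to 5.08). Prdx1, Gclm and Nfe2l2, which encodes NRF2 itself, had 1.32, 1.07 and 1.05.

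In neutrophil-like cells, where Mt1 had a ratio of 0.913 (0.798 to 1.05), 4 of 7 copper genes were higher by 1.5-fold and 0 lower, against 8.29% and 11.8% of all genes. These were the transporters Slc31a1 and Slc31a2, the superoxide dismutase Sod1 and Commd1, and of these the interval of Commd1 (1.31 to 2.74) lay wholly above 1. Atox1 and Cox17 had 1.36 and 0.673. Of 6 zinc genes Slc30a9 was lower, at 0.593 (0.265 to 1.32), and Slc39a7, Slc39a11 and Mtf1 had 0.683, 0.860 and 0.690. Of 4 glucocorticoid response genes Nr3c1 was higher, at 2.29 (0.819 to 7.89), and Fkbp5 lower, at 0.494 (0.228 to 1.05), while Tsc22d3 and Klf9 had 1.05 and 0.742. Of 6 oxidative stress genes 0 passed 1.5-fold, and Prdx1, Gclm and Nfe2l2 had 1.16, 1.07 and 1.33.

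The genes whose pattern was most like that of each metallothionein differed. Likeness was the Pearson correlation of log2(CPM + 10) over 14 profiles, 7 classes in each library, among the 2632 genes that averaged 50 CPM or more. The 5 most like Mt1 were Taldo1 (r = 0.893), Gatm (0.881), Rgcc (0.837), Sephs2 (0.816) and Ap3s1 (0.802). All 5 stood highest in neutrophil-like cells and next highest in an erythroid stage in both libraries. Taldo1, an enzyme of the pentose phosphate pathway, stood at 853 and 851 CPM in neutrophil-like cells. It stood at 567 and 600 CPM in Klf1/Car1 cells and at 589 and 650 CPM in Slc4a1 cells. Mt1 fell from 515 and 603 CPM to 72.1 and 208 CPM between these stages, so the likeness of Taldo1 does not extend to that step. The 5 most like Mt2 were Fam132a (0.944), Necap2 (0.929), Asns (0.928), Klf1 (0.912) and Bola3 (0.912). Fam132a, which RefSeq names C1qtnf12, stood at 1240 and 1301 CPM in Klf1/Car1 cells and 108 and 96.4 CPM in neutrophil-like cells. Mt2 ranked 124 among the genes most like Mt1, with r = 0.590.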

How the data were processed

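HSCs were captured on the 10x Genomics Chromium. The authors deposited raw UMI counts per gene and barcode, not normalized, for 27998 genes and 737280 barcodes per library. Cell Ranger 2.2.0 and mm10 are named in the submitters' processing notes. Each library was mapped to its genotype by its title, and 0 columns were left unmapped.

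A barcode was called a cell at 10% or more of the 99th percentile of UMIs of the 1000 deepest barcodes (4393 and 6177 UMIs), which gave 349 and 632 cells. The labels give 383 and 686. Cells at or over 10% mitochondrial UMIs were dropped. Both libraries were clustered together with scanpy 1.11.5 (2000 variable genes, 20 components, 15 neighbours, Leiden resolution 1, 0.8 for stem-like and 0.5 for erythroid-like cells). Clusters were named from marker lists. No cells were removed as doublets, and Scrublet was run only as an alternative. Stage names, haemoglobin limits and the limits for neutrophil-like cells were set after clusters had been seen.

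UMIs were summed per class and library. Intervals are exact 95% intervals (Poisson for CPM, Clopper-Pearson for shares, conditional binomial for ratios) and cover counting error only. Cells were thinned to 5800 UMIs where stated. Genes past 1.5-fold were counted among those with 20 UMIs or more in the libraries together, after 0.5 was added to each count. Expected free RNA is the CPM in barcodes of 1 to 100 UMIs times the share gauged by haemoglobin or neutrophil granule genes. The ratio interval was tested on simulated data. TMM factors came from edgeR 4.0.16. Coordinates are RefSeq's for GRCm38.p6, matched by symbol.

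Of each gene list, in the classes where it is described, the 3 genes with most UMIs and those tested and past 1.5-fold are named. The members and lists were chosen with earlier results of these data known.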

Additional observations from a re-analysis of the deposited data

Results flagged for a closer look

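The genotype ratios in erythroid-like cells differed in direction with the sex-linked UMIs of the cells. Xist cells here had Xist but no Y-linked UMIs, and Y-linked cells the reverse. For Mt1 the ratio of the Id2Δ/Δ over the Id2+/+ library was 0.817 (0.704 to 0.952) in Xist cells and 1.81 (1.43 to 2.31) in Y-linked cells. For Mt2 the ratios were 0.696 (0.598 to 0.813) and 1.38 (1.08 to 1.76). Of 16 such pairs of ratios looked at, these 2 were the ones on opposite sides with intervals that exclude 1. No test of the difference between Xist and Y-linked cells was run, because a library's cells are no replicates, and it was looked at after the values had been seen. The ratios rest on 14 Xist and 7 Y-linked Id2+/+ cells, against 71 and 33 Id2Δ/Δ cells. Among the 7 cells, 1 held 41 of the 78 Mt1 UMIs and 1 held 35 of the 78 Mt2 UMIs. In the 14 Xist cells the highest counts in a cell were 43 of 210 and 50 of 208 UMIs. The intervals cover counting error and not this spread between cells. Mt1 and Mt2 went together across erythroid-like cells, so the 2 pairs are not separate observations. Among cells under 0.5% haemoglobin, with 9 and 2 Id2+/+ cells, the Mt1 ratios were 0.978 (0.830 to 1.16) and 1.36 (1.02 to 1.85), and the Mt2 ratios 0.839 (0.706 to 1.001) and 1.06 (0.784 to 1.45). In the Id2Δ/Δ library the subcluster with the higher metallothionein levels held 15 Xist and 18 Y-linked cells, and the lower one led by Rpl39l held 36 and 8. The part of stage, subcluster and animal in these ratios was not tested.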

How the results depend on the processing

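No paired analysis was possible because there is a single library of each genotype. The clustering resolution, scaling within the library and keeping Mt1 and Mt2 in the clustering left the cells of the 3 lineages the same. The log2 ratio of Mt1 in stem-like cells, 1.01, became 0.62 with cells thinned to 5800 UMIs and 0.55 without platelet-biased cells. With free RNA removed by the haemoglobin gauge it became 2.22, which is not firm because the Id2+/+ background depends on the gauge. Removal of free RNA gave no value for Mt2 there, since less than 0 was left in the Id2+/+ library. In erythroid-like cells the mean of the cells' CPM moved the log2 ratio of Mt1 from 0.22 to 0.50 and that of Mt2 from 0.06 to 0.28, and thinning moved that of Mt1 to 0.40. Barcodes of 1 to 10 UMIs held Mt1 at 210 and 235 CPM and Mt2 at 118 and 198 CPM. Genes higher by 1.5-fold in stem-like cells numbered 345, or 220 with at least 50 UMIs, 1065 with at least 1 UMI and 562 with TMM, and genes lower numbered 1416, or 835 and 3621 with these minimums. In erythroid-like cells 478 were higher, or 278 and 1077, and 1031 lower, or 540 and 4179. TMM raised log2 ratios in stem-like cells by 0.11. No ratio of Mt1 or Mt2 in the 3 lineages changed sign under these alternatives, but the erythroid-like ratio of Mt2 was 0.808 between 0.5% and 1% haemoglobin and 0.906 between 1% and 2%, and in Xist cells both genes were below 1. The ratios without platelet-biased cells, at fixed haemoglobin, in Elane/Mpo cells, in the stem-like classes and the alternatives in neutrophil-like cells were chosen after seeing the data. Scrublet marked 2 and 1 cells. Mt2 in stem-like and neutrophil-like cells is limited by free RNA and counts of 11 to 76 UMIs.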

Other observations

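Barcodes between empty droplets and cells also held metallothionein UMIs. From 101 to 500 UMIs, Mt1 stood at 296 CPM (228 to 377) and 416 CPM (343 to 500), and Mt2 at 287 CPM (220 to 367) and 350 CPM (283 to 428), in 1423 and 1727 barcodes. From 1501 UMIs to the limit of a cell, Mt1 stood at 104 CPM (63.4 to 160) and 122 CPM (100 to 146) and Mt2 at 109 CPM (67.5 to 167) and 132 CPM (110 to 158), and the share of haemoglobin genes was 1.89% and 2.02%. The Mt1 share in these deeper barcodes was 48.8% (32.9 to 64.9) and 47.9% (41.3 to 54.5), and these intervals overlap those of erythroid-like cells and of barcodes of 1 to 100 UMIs in the same library.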
